A study of Mus musculus with 24 samples.

Results

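The effect of targeting CMAS, averaged over COSMC status, was taken from 12 of the 24 samples of the series. The 6 CMAS-targeted samples were 3 of MC38-CMAS KO and 3 of MC38-DKO, and the 6 samples they were set against were 3 of MC38-MOCK#1 and 3 of MC38-COSMC KO, with COSMC status as a covariate. The rule names samples by their labels. MC38 is a mouse colorectal cancer cell line of strain C57BL/6, and messenger RNA of 8 glycovariant lines was sequenced, 3 samples a line. In MC38-CMAS KO the label names CMAS as the target of CRISPR-Cas9, in MC38-COSMC KO it names COSMC, in MC38-DKO it names both, and in MC38-MOCK#1 it names no target gene. All 4 lines were grown with puromycin and were harvested at passages 4, 5 and 6, so passage did not differ between them. How the MC38-CMAS KO and MC38-DKO cells were selected is not given in the sources used here. Each line is 1 population of cells and its samples are passages of it, so p-values measure the spread between passages, and a property of 1 population cannot be told apart from an effect of its targeted gene.

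Sialic acids are acidic sugars that cap many glycans at the cell surface. The enzyme encoded by Cmas activates sialic acid in the nucleus by coupling it to cytidine monophosphate, and the product, CMP-sialic acid, is carried into the Golgi, where sialyltransferases use it as their donor. Cells that lack the enzyme cannot add sialic acid to glycoproteins and glycolipids. COSMC, encoded by C1galt1c1, is the chaperone of the T-synthase that extends O-glycans, and its loss leaves the truncated Tn antigen, which may in general still carry sialic acid as sialyl-Tn. From flow cytometry that it does not show, the paper concludes that Tn antigen was not sialylated in its COSMC knockout cells. The average over COSMC status asks which transcripts shifted with CMAS targeting in both kinds of O-glycan background.

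Values are given as normalized counts, the read counts that the authors scaled for each library and rounded. They summed to between 11048959 and 11613273 in the 12 samples, with a median of 11311844, and the number of reads behind each library is not in the table. The epithelial genes Cdh1, Epcam, Krt8, Krt18 and Krt19 stood at 4 or less in all 12 samples, while Vim, which encodes the mesenchymal filament protein vimentin, ranged from 22406 to 33315. Summed over 14 immune cell markers, the samples held 56 to 77 normalized counts in MC38-MOCK#1, 57 to 62 in MC38-COSMC KO, 48 to 72 in MC38-CMAS KO and 74 to 83 in MC38-DKO, and Cd3e, Adgre1, Itgax, Siglech and Cd22 were at 0 throughout. The part of such cells in the results was not tested.

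The targeted gene Cmas (ENSMUSG00000030282) is on the plus strand of chromosome 6 of GRCm38, from 142756686 to 142775714. It had 416, 384 and 386 normalized counts in MC38-MOCK#1 and 117, 93 and 126 in MC38-CMAS KO. It had 350, 356 and 322 in MC38-COSMC KO and 142, 135 and 122 in MC38-DKO. All 6 CMAS-targeted samples were thus below all 6 others, and they were also below the 12 samples of the other lines, since the 18 samples not targeted at CMAS ranged from 272 to 416. The averaged log2 fold change was -1.59 (standard error, SE, 0.110, limma adjusted p = 3.37e-05). MC38-CMAS KO kept 28.3% of the level of MC38-MOCK#1 and MC38-DKO kept 38.8% of that of MC38-COSMC KO. The difference between the backgrounds, 0.46 on the log2 scale (SE 0.169), did not pass the threshold (adjusted p = 0.0686 from limma).

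C1galt1c1 had 238 ± 15.9 normalized counts in MC38-MOCK#1, 144 ± 19.5 in MC38-COSMC KO, 183 ± 31.5 in MC38-CMAS KO and 182 ± 21 in MC38-DKO (SD, n = 3 each). The level in MC38-DKO was therefore within the range of MC38-CMAS KO, which is not targeted at COSMC, and MC38-MOCK#2, with no target gene, had 181 ± 32.3 (SD, n = 3). RNA levels of C1galt1c1 thus gave no check of the COSMC label of MC38-DKO. Exchanging the labels MC38-CMAS KO and MC38-DKO would leave the averaged fold changes as they are, because both lines are on the same side of the average. The effects within each background, their difference and the error behind the averaged calls do rest on these labels. Whether the labels are right was not tested, and the lines are named as labelled throughout.

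Few transcripts were called for CMAS targeting averaged over COSMC status, in a fit that counts any difference between the backgrounds as error. A fit with a mean for each line, described below, called 287 for the same average (1.34%). Of 21396 genes tested, 16 (0.0748%) passed an adjusted p of 0.05 in limma in the former fit. Of these, 11 were higher (0.0514%) and 5 lower (0.0234%) in CMAS-targeted samples. In that fit 1408 genes had an unadjusted p below 0.05. The genes that rose were Mpzl3, Col3a1, Bmper, Tst, Ptgs2os2, Rhox2h, Cald1, Bpgm, Arhgef5, Neo1 and Slc23a2. Those that fell were Gm17067, Lbx1, Cmas, Trpv2 and Tmcc3. In 14 of the 16 the 6 CMAS-targeted samples did not overlap with the 6 others, which held for 0.472% of all tested genes. All 16 were called in the same direction when each background was tested on its own. The same 12 samples were used to call these genes, so neither count is separate support for them.

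**Figure D1:**
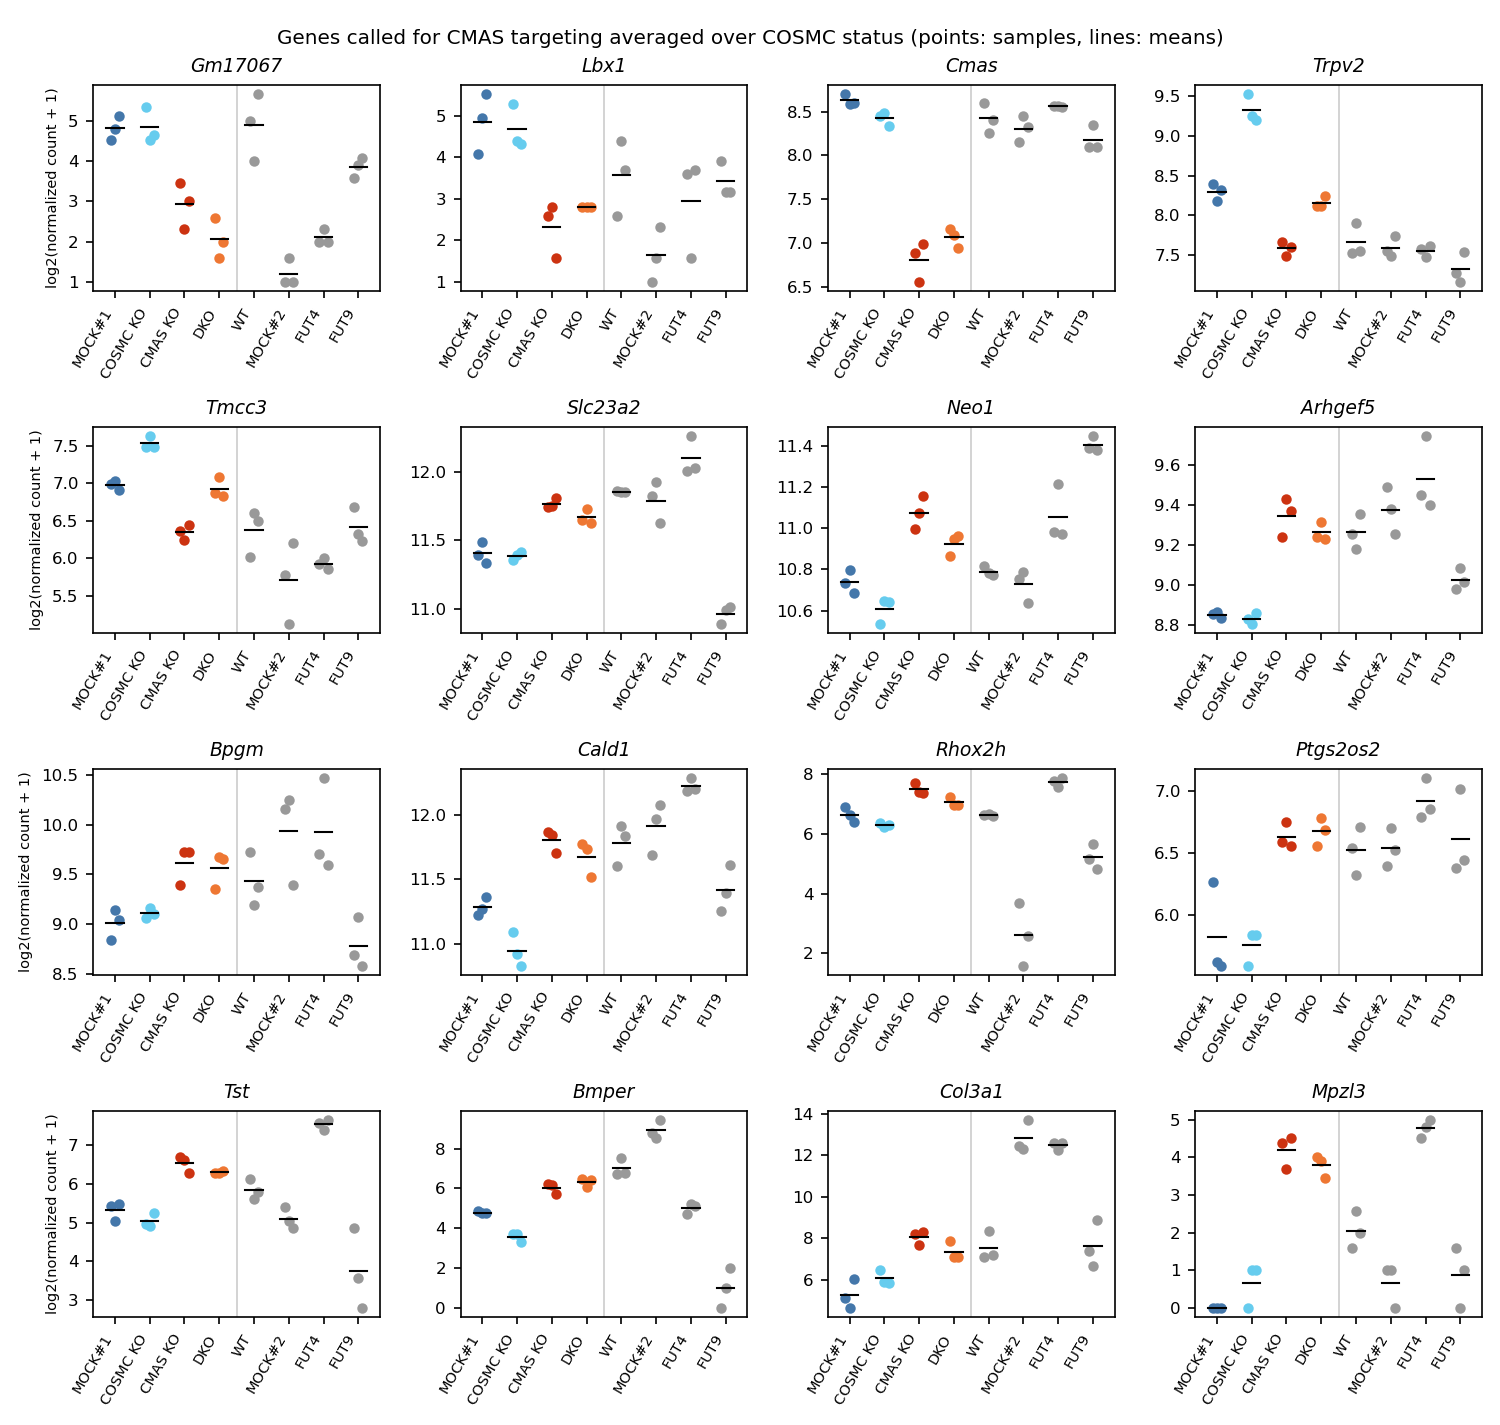
Log2 of the normalized count plus 1 (vertical axes, each panel with its own range) in each sample of the 8 lines for the 16 genes called in the average, with lines at the mean of 3 samples. Blue and light blue points are the lines without a CMAS target, red and orange points those with one, and grey points the 4 other lines, and of the 16 genes only Cmas has both CMAS-targeted lines outside the range of the 18 other samples.

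The largest rise was in Mpzl3, which encodes a transmembrane protein with an immunoglobulin-like domain. It was at 0 in all 3 samples of MC38-MOCK#1 and at 0, 1 and 1 in MC38-COSMC KO, and it had 20, 12 and 22 normalized counts in MC38-CMAS KO and 15, 14 and 10 in MC38-DKO. The gene was therefore near or at 0 without CMAS targeting and low but present in each sample with it. Against a floor of 3 normalized counts a library, MC38-CMAS KO was at least 6-fold higher than MC38-MOCK#1, and the averaged test gave an adjusted p of 0.000356 from limma. In MC38-FUT4, which is not targeted at CMAS, Mpzl3 ranged from 22 to 31.

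Secreted and matrix proteins came next. Col3a1, a chain of fibrillar collagen III, had 34, 24 and 65 normalized counts in MC38-MOCK#1 and 291, 207 and 316 in MC38-CMAS KO. In the COSMC background it had 88, 58 and 57 in MC38-COSMC KO and 234, 134 and 138 in MC38-DKO. Each CMAS-targeted sample was above each of the others, but the rise was smaller in the COSMC background, 1.29 against 2.79 on the log2 scale (difference -1.51, SE 0.456, limma adjusted p = 0.0285). The averaged log2 fold change was 2.04 (SE 0.312, limma adjusted p = 0.0263), and the call was kept in 4 of the 12 fits that each left out 1 sample.

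Bmper, which encodes a secreted protein that binds bone morphogenetic proteins, had 28, 26 and 26 normalized counts in MC38-MOCK#1 and 74, 71 and 51 in MC38-CMAS KO. It had 12, 12 and 9 in MC38-COSMC KO and 87, 66 and 84 in MC38-DKO. The CMAS-targeted lines were at a similar level, while MC38-COSMC KO was below MC38-MOCK#1, and the rise with COSMC targeting was the larger one (2.74 against 1.24, difference 1.49, SE 0.326, limma adjusted p = 0.00445). Averaged, Bmper rose by 1.99 on the log2 scale (SE 0.264, limma adjusted p = 0.0104) and was called in all 12 fits that left out 1 sample. Among the other lines it ranged from 0 to 3 in MC38-FUT9 and from 370 to 695 in MC38-MOCK#2, below and above all 12 samples compared.

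Enzymes and transporters moved by less. Tst, the mitochondrial sulfurtransferase rhodanese, had 42, 32 and 44 normalized counts in MC38-MOCK#1, 30, 29 and 37 in MC38-COSMC KO, 103, 97 and 76 in MC38-CMAS KO and 76, 77 and 79 in MC38-DKO. Its averaged log2 fold change was 1.23 (SE 0.144, limma adjusted p = 0.00376), nearly the same in either background, with 1.21 and 1.26. Bpgm, the enzyme that makes 2,3-bisphosphoglycerate, rose by 0.53 (SE 0.0868, limma adjusted p = 0.0468), from 457 to 573 in the samples without a CMAS target to 653 to 845. Slc23a2, a sodium-dependent transporter of vitamin C, rose by 0.32 (SE 0.0474, limma adjusted p = 0.0233), from 2579 to 2869 up to 3162 to 3585. With the median of its chromosome removed from each sample, the change of Bpgm was as large, 0.54 (limma adjusted p = 0.0750), and that of Slc23a2 was 0.25 (limma adjusted p = 0.313), so that neither passed the test. Their calls were kept in 1 and 3 of the 12 fits that left out 1 sample.

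Cald1, which encodes the actin- and myosin-binding protein caldesmon, had 2385, 2467 and 2637 normalized counts in MC38-MOCK#1, 2176, 1932 and 1816 in MC38-COSMC KO, 3739, 3679 and 3336 in MC38-CMAS KO and 3498, 3411 and 2933 in MC38-DKO. Arhgef5, a guanine nucleotide exchange factor, lay between 446 and 464 in the 6 samples of MC38-MOCK#1 and MC38-COSMC KO and between 600 and 689 in the CMAS-targeted ones. In the 12 samples of the other lines, none targeted at CMAS, Arhgef5 ranged from 504 to 859 and Cald1 from 2436 to 5012. MC38-WT had 579 to 654 of Arhgef5 and 3106 to 3859 of Cald1, near the levels of the CMAS-targeted samples. The averaged log2 fold changes were 0.63 (SE 0.0700, limma adjusted p = 0.00284) for Cald1 and 0.47 (SE 0.0569, limma adjusted p = 0.0052) for Arhgef5, both called in all 12 fits that left out 1 sample. Neo1, the receptor neogenin for netrins and repulsive guidance molecules, rose by 0.33 (SE 0.050, limma adjusted p = 0.0263) and kept its call in 1 of those fits.

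Of the remaining calls, Trpv2, which encodes a cation channel, had 334, 289 and 318 normalized counts in MC38-MOCK#1, 202, 178 and 193 in MC38-CMAS KO, 738, 609 and 587 in MC38-COSMC KO and 276, 276 and 301 in MC38-DKO. It fell within either background, but the levels of MC38-DKO overlapped with those of MC38-MOCK#1, and the fall of 1.17 with COSMC targeting was larger than that of 0.71 without it (difference -0.46, SE 0.146, limma adjusted p = 0.0365). Averaged, it fell by 0.94 on the log2 scale (SE 0.101, limma adjusted p = 0.00222), and without the COSMC term the adjusted p was 0.296. Tmcc3, which encodes a membrane protein of the endoplasmic reticulum, fell by 0.61 (SE 0.0934, limma adjusted p = 0.0263), and its CMAS-targeted and other samples also overlapped. Its call was lost with the median of its chromosome removed (-0.53, limma adjusted p = 0.239) and was kept in 1 of the 12 fits that left out 1 sample.

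Low transcripts made up the rest. Gm17067 had 22, 27 and 34 normalized counts in MC38-MOCK#1, 40, 22 and 24 in MC38-COSMC KO, 10, 4 and 7 in MC38-CMAS KO and 5, 2 and 3 in MC38-DKO, an averaged log2 fold change of -2.34 (SE 0.312, limma adjusted p = 0.0104). Lbx1, a homeobox gene of muscle and spinal cord development, ranged from 16 to 45 without a CMAS target and from 2 to 6 with one, and its call was kept in 2 of the 12 fits that left out 1 sample. In MC38-MOCK#2, which has no CMAS target, Gm17067 ranged from 1 to 2 and Lbx1 from 1 to 4, so levels as low as in the CMAS-targeted lines occurred without the targeting. Rhox2h, of a cluster of closely related homeobox genes on chromosome X between which short reads may be split, rose by 0.81 (SE 0.117, limma adjusted p = 0.0207). Ptgs2os2, a noncoding transcript on chromosome 1, rose by 0.87 (SE 0.142, limma adjusted p = 0.0468). Its call was kept in 1 of the 12 fits that left out 1 sample and was lost with a pseudocount of 5 (limma adjusted p = 0.0701).

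Set against all 18 samples without a CMAS target, the CMAS-targeted samples stood apart for 2 genes (0.00935% of those tested). These were Cmas and Afg3l1, which encodes a mitochondrial protease subunit. Afg3l1 was lower by a log2 fold change of -0.20 and was not called (adjusted p = 0.302 from limma). Each of the other 15 genes called in the average had at least 1 sample of a line without a CMAS target in or beyond the range of the CMAS-targeted samples. MC38-MOCK#2 and MC38-FUT4, for example, had 5020 to 13474 and 4918 to 6318 normalized counts of Col3a1, above every CMAS-targeted sample. MC38-WT had 135 to 322 of Col3a1, 3686 to 3709 of Slc23a2, 183 to 239 of Trpv2 and 64 to 96 of Tmcc3. These levels are in or beyond the range of the CMAS-targeted samples. Its levels of Rhox2h (95 to 101) and Gm17067 (15 to 50) were outside that range. Whether MC38-MOCK#1 and MC38-COSMC KO are the unusual lines for these genes was not tested.

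Promoters are shown for Cmas, as the targeted gene, and for Col3a1 and Bmper, as the strongest rises for which a sequence was at hand. They come from RefSeq on GRCm38.p6, run 5′ to 3′ on the plus strand from 250 bases before the start of the gene to 50 after it, and mark in capitals the matches to TATAAA (the TATA box), to CCAAT and to the GC box GGGCGG, all searched on both strands.
Cmas, chr6:142756436-142756735: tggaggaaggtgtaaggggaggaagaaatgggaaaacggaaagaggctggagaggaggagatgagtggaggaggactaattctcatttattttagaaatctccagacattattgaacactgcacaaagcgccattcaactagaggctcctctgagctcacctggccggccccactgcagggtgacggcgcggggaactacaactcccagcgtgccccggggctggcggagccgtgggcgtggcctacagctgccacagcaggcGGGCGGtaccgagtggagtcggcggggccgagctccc
Col3a1, chr1:45311288-45311587: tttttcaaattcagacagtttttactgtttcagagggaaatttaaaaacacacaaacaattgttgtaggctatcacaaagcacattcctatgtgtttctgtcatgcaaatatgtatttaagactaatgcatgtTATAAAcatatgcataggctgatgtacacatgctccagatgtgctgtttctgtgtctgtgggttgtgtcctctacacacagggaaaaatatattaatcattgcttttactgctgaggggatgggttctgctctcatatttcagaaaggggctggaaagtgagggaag
Bmper, chr9:23222826-23223125: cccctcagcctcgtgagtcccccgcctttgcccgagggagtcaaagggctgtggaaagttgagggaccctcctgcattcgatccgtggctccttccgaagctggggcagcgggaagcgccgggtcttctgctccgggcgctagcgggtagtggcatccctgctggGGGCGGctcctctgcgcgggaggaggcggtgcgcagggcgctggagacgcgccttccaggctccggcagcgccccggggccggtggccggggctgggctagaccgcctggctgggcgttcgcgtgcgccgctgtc
The Cmas promoter held 17 CG pairs and 1 match to GGGCGG, that of Bmper 31 CG pairs and 1 match to GGGCGG, and that of Col3a1 0 CG pairs and 1 match to TATAAA. Of the 16 genes, 12 had a promoter sequence, and GGGCGG was found in 7 of these and in 35.9% of 27025 promoters, CCAAT in 6 and in 37.9%, and TATAAA in 1 and in 14.2%. These letter matches are a description and no sites of binding.

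The small number of averaged calls stood beside large changes within each background. Without COSMC targeting, MC38-CMAS KO differed from MC38-MOCK#1 in 2201 genes (10.3%), 1108 higher (5.18%) and 1093 lower (5.11%). With COSMC targeting, MC38-DKO differed from MC38-COSMC KO in 3294 genes (15.4%), 1581 higher (7.39%) and 1713 lower (8.01%). The CMAS effect itself differed between the backgrounds in 4736 genes (22.1%), 2372 of them shifted upward by COSMC targeting (11.1%) and 2364 downward (11.0%). All of these counts are from limma at an adjusted p of 0.05.

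By these labels, most genes called in both backgrounds had effects in opposite directions, a result that would change if the labels MC38-CMAS KO and MC38-DKO were exchanged. Of 1252 genes called in both backgrounds, which are 56.9% of the list without and 38.0% of the list with COSMC targeting, 30 moved the same way (0.14% of genes tested) and 1222 moved opposite ways (5.71%). Among the opposite ones, 629 were higher in MC38-CMAS KO and lower in MC38-DKO, each against its own reference line, and 593 were the reverse. Across 13531 genes with a mean of at least 10 normalized counts the effects correlated with r = -0.59, and 70.5% of these genes had effects of opposite sign. The comparisons share no sample, and genes are not independent replicates. The median absolute log2 fold change was 0.188 without and 0.220 with COSMC targeting, and 0.0900 in the average.

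**Figure D2:**
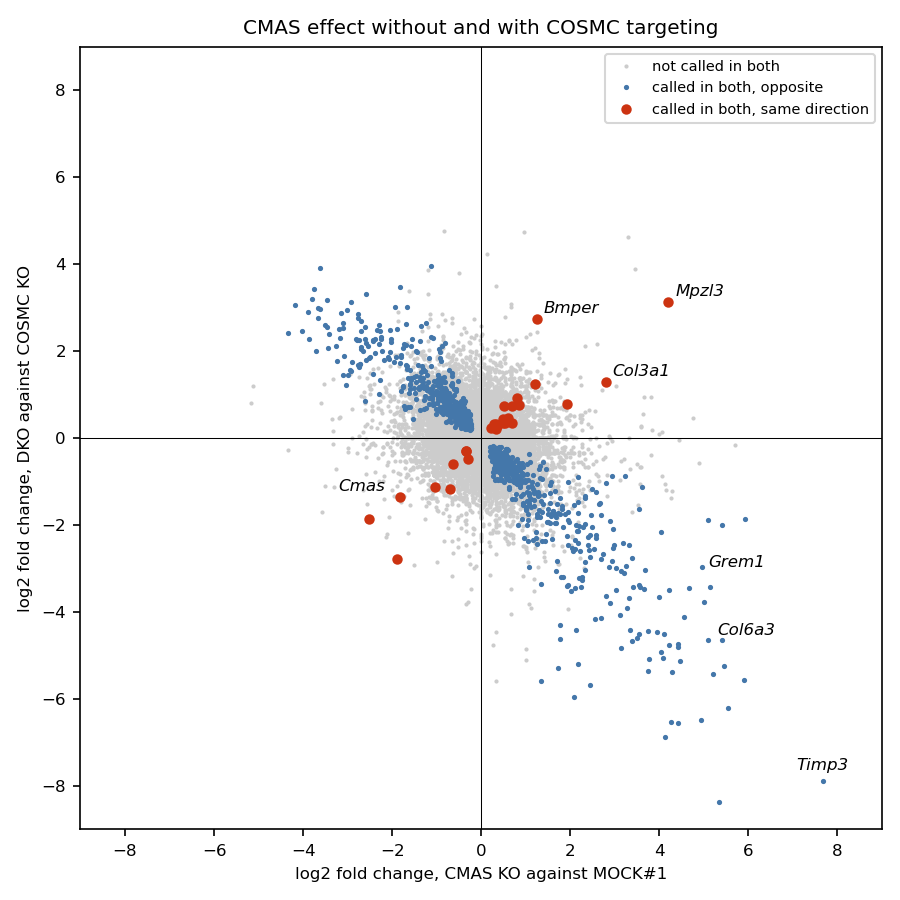
Log2 fold change of each tested gene between MC38-CMAS KO and MC38-MOCK#1 (horizontal axis) and between MC38-DKO and MC38-COSMC KO (vertical axis). Grey points were not called in both comparisons, blue points are the 1222 genes called in opposite directions, and red points are the 30 called in the same direction, among them Cmas, Mpzl3, Bmper and Col3a1.

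The 14 genes that moved the same way in both backgrounds without passing the averaged test had averaged adjusted p values from 0.0581 to 0.172 from limma. The rule for named genes does not cover them, and those given here were picked with their values in view. Among them Dis3l2, which encodes an exoribonuclease, had an averaged log2 fold change of -1.08, and Lta4h, which encodes leukotriene A4 hydrolase, one of -0.39. Slit2, a secreted ligand of Robo receptors, had 0.41, Tns3, an adhesion protein of the tensin family, 0.52, and Rasa1, a GTPase-activating protein for Ras, 0.30. Rpl39-ps and Gm15542 are pseudogenes, and Fam177a and 1700047I17Rik2 had near-identical values, so the reads of these 4 may belong to other copies.

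A fit with a mean for each line, in which the difference between backgrounds does not add to the error, called 287 genes for the same average (1.34%), 151 higher and 136 lower. Of these, 198 differed between the backgrounds, where 22.1% of all tested genes did, so most of the added calls were averages of unequal effects. Effects of opposite sign were found for 107 of the 287, a smaller share than the 62.7% of all tested genes. It held the 30 genes that moved the same way, and 15 members of the gene lists. Grem1, a secreted antagonist of bone morphogenetic proteins, was one of the 15, with 19, 13 and 14 normalized counts in MC38-MOCK#1, 441, 476 and 588 in MC38-CMAS KO, 544, 617 and 761 in MC38-COSMC KO and 59, 95 and 92 in MC38-DKO. Its averaged log2 fold change of 0.99 was the mean of 4.95 and -2.97 and described neither background.

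Principal components of the 12 samples showed the same arrangement. Component 1 (38.1% of the variance) had MC38-MOCK#1 at -34.0 to -27.6 and MC38-DKO at -33.7 to -30.1, and on the other side MC38-CMAS KO at 28.0 to 32.2 and MC38-COSMC KO at 32.6 to 35.6. The line labelled DKO therefore lay with the mock line, and the line labelled CMAS KO with MC38-COSMC KO. As labelled, component 1 thus followed neither CMAS nor COSMC status. With the labels DKO and CMAS KO exchanged it would split these 12 samples by COSMC status, but whether the labels are right was not tested. C1galt1c1 RNA, at 182 and 183 normalized counts in these lines, gave no check of them. The other lines, among them lines without a COSMC target, were not part of these components. Component 2 (11.6%) did not separate the lines. Component 3 (10.2%) separated the CMAS-targeted samples, at 8.52 to 28.0, from the others, at -21.8 to -10.4.

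**Figure D3:**
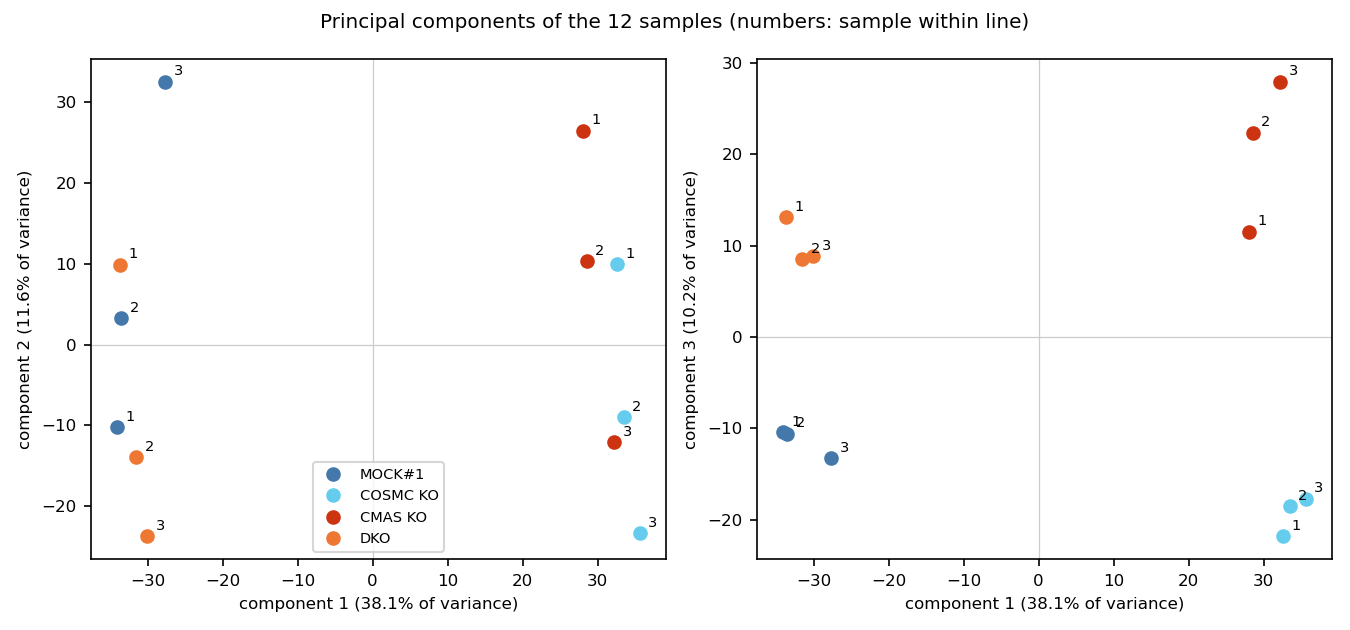
Positions of the 12 samples on principal components 1 and 2 (left) and 1 and 3 (right) of log2 normalized counts of 13531 genes, with the share of variance on each axis and the sample number beside each point. Component 1 places MC38-MOCK#1 with MC38-DKO and MC38-CMAS KO with MC38-COSMC KO, and component 3 places both CMAS-targeted lines above the other lines.

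The 5 genes with the largest fall of the CMAS effect under COSMC targeting were at 7 normalized counts or less in MC38-MOCK#1 and MC38-DKO. Timp3, an inhibitor of matrix metalloproteinases, had 5, 4 and 4 normalized counts in MC38-MOCK#1, 957, 1113 and 1186 in MC38-CMAS KO, 761, 943 and 877 in MC38-COSMC KO and 5, 3 and 1 in MC38-DKO. Its effects of 7.67 and -7.88 on the log2 scale differed by -15.55 (SE 0.424, limma adjusted p = 4.46e-11). In lines used for levels only, Timp3 ranged from 519 to 697 in MC38-WT and from 225 to 359 in MC38-MOCK#2. It ranged from 1338 to 1570 in MC38-FUT9 and from 1 to 12 in MC38-FUT4. High levels thus also occurred without CMAS or COSMC targeting. Pet2, Colec12, Sorcs2 and Stxbp2 were likewise higher in MC38-CMAS KO and MC38-COSMC KO. Colec12 encodes a scavenger receptor with a collagen-like domain, Sorcs2 a sorting receptor, and Stxbp2 takes part in vesicle fusion. Unlike Timp3, they were, among the 4 lines compared, highest in MC38-COSMC KO. Its mean and that of MC38-CMAS KO were 332 and 127 for Pet2, 162 and 79 for Colec12, 188 and 40 for Sorcs2 and 195 and 81 for Stxbp2. MC38-WT had 135 to 232 of Pet2, 129 to 158 of Colec12, 38 to 44 of Sorcs2 and 170 to 177 of Stxbp2. MC38-FUT4 had 15 or less of each. Colec12 was higher in MC38-MOCK#2 (433 to 543) and Stxbp2 in MC38-FUT9 (386 to 429) than in MC38-COSMC KO. Pet2 and Sorcs2 reached at most 232 and 46 in the other lines. Pet2 was at 0 in all 3 samples of MC38-DKO and at 374, 323 and 299 in MC38-COSMC KO, at least 111-fold lower against a floor of 3 normalized counts a library.

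In the other direction, Syk, a cytoplasmic tyrosine kinase, had 61, 42 and 35 normalized counts in MC38-MOCK#1, 0, 9 and 2 in MC38-CMAS KO, 3, 4 and 10 in MC38-COSMC KO and 42, 44 and 46 in MC38-DKO. Its effects were -3.88 and 2.90 (difference 6.78, SE 0.913, limma adjusted p = 0.000114). In the 12 samples of the other lines Syk ranged from 1 to 7, so low levels also occurred without CMAS or COSMC targeting. Sphk1, the kinase that makes sphingosine 1-phosphate, had effects of -3.62 and 2.98. Ovol2, a zinc finger repressor of mesenchymal genes, had -3.47 and 3.17, Ccdc36 -4.18 and 3.07, and Gm18336 -3.75 and 3.44. In the 12 samples of the other lines Sphk1 ranged from 0 to 6, Ovol2 from 2 to 24 and Ccdc36 from 0 to 4. Gm18336 ranged there from 6 to 514, with 457 to 514 in MC38-MOCK#2. All 10 genes were called for the difference in each of 12 fits that left out 1 sample.

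Of 375 genes in 26 lists of pathways and cell types, 3 were called in the average, namely Cmas, Col3a1 and Bmper, against 0.0748% of all tested genes, and the other 23 lists had no call. The lists and their members were chosen with earlier results of these data known. Their shares, here and below, are therefore a description and no separate support. The effects differed between backgrounds for 165 of the 375, against 22.1% of all. Among genes with a mean of at least 10 normalized counts on the chromosomes plotted below, the share was 31.3%. In both backgrounds 60 were called in opposite directions, against 5.71% of all, and 3 in the same direction, against 0.14% of all. Medians over all tested genes were 0.00 in either background and in the average.

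**Figure D4:**
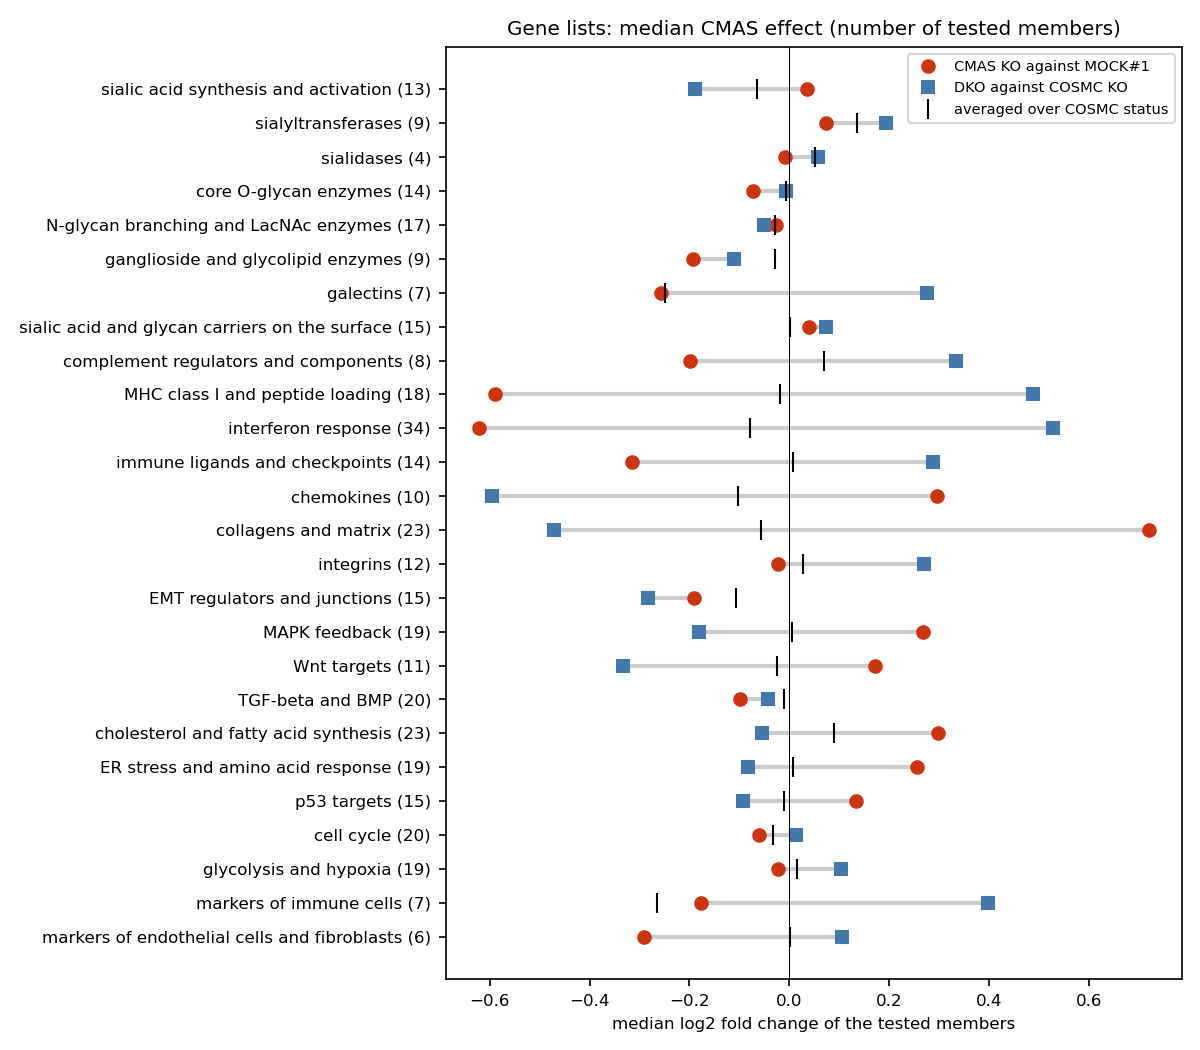
Median log2 fold change of the tested members of each of 26 gene lists (horizontal axis), with the number of tested members in brackets. Red circles are MC38-CMAS KO against MC38-MOCK#1, blue squares MC38-DKO against MC38-COSMC KO and black ticks the average, and the interferon, MHC class I and collagen lists have the widest gaps, with averages of -0.08, -0.02 and -0.06.

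Apart from Cmas, the pathway that makes and uses CMP-sialic acid had no averaged call, where 0.0748% of all tested genes were called. With so small a share, the lack of a call in a list of this size says little about its genes. Of 13 tested genes of sialic acid synthesis and activation, 2 rose and 1 fell in MC38-CMAS KO, where 5.18% of all tested genes rose and 5.11% fell. In MC38-DKO 0 rose and 3 fell, where 7.39% of all rose and 8.01% fell, and in both lines Cmas itself was among the genes that fell. Gne, the enzyme that opens the pathway, ranged from 187 to 240 normalized counts in the 12 samples, and its averaged log2 fold change was -0.07 (SE 0.0939, limma adjusted p = 0.968). Nans, which makes sialic acid 9-phosphate, had an averaged change of 0.08 (SE 0.0526) and Slc35a1, the CMP-sialic acid carrier of the Golgi, of 0.16 (SE 0.0905). Renbp, a binding protein of renin that also acts as an epimerase on N-acetylglucosamine, had 179, 164 and 203 normalized counts in MC38-MOCK#1 and 415, 377 and 445 in MC38-CMAS KO, but 356, 302 and 291 in MC38-COSMC KO and 149, 124 and 123 in MC38-DKO. It rose by 1.18 in one background and fell by 1.25 in the other.

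Of 20 sialyltransferases, 9 were tested and 0 were called in the average (0.0748% of all tested genes were). St3gal1, which sialylates the T antigen, rose by 0.46 in MC38-CMAS KO and had a change of 0.19 in MC38-DKO, which did not pass the test. St3gal6 had 230, 257 and 217 normalized counts in MC38-MOCK#1, 167, 180 and 107 in MC38-CMAS KO, 83, 78 and 79 in MC38-COSMC KO and 226, 237 and 187 in MC38-DKO, so that it fell by 0.66 in the former background and rose by 1.42 in the latter. St3gal4 rose by 0.37 and fell by 0.30, and St3gal5, which makes the ganglioside GM3, fell by 0.45 and rose by 0.42. The sialidase list had 4 tested genes, of which Ctsa and Glb1 do not encode sialidases. Ctsa, which encodes the protective protein of lysosomal neuraminidase, rose by 0.38 in MC38-CMAS KO, and Neu1 and Neu3 were called in neither background.

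Among enzymes of core O-glycans, 14 genes were tested and 0 called in the average (0.0748% of all tested genes were). C1galt1, the T-synthase, had an averaged log2 fold change of 0.17 (SE 0.0789, limma adjusted p = 0.760). Gcnt4, a branching enzyme, rose by 1.37 in MC38-DKO and had a change of -0.20 in MC38-CMAS KO. Galectins bind galactose-containing glycans, and their list had 7 tested genes, of which Lgals3bp encodes a galectin-binding protein and no galectin. Lgals1 rose by 0.33 and fell by 0.58, Lgals3 rose by 1.33 and fell by 1.83, and Lgals9 fell by 2.28 and rose by 1.33, in MC38-CMAS KO and MC38-DKO in that order.

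Of 18 tested genes of MHC class I and peptide loading, 0 rose and 8 fell in MC38-CMAS KO, where 5.18% of all tested genes rose and 5.11% fell. In MC38-DKO 8 rose and 1 fell, where 7.39% of all rose and 8.01% fell. The list had medians of -0.59 and 0.49, and the average had a median of -0.02 with no call (0.0748% of all tested genes had one). B2m, the light chain of MHC class I, had 2120, 2206 and 2809 normalized counts in MC38-MOCK#1, 1897, 1681 and 1462 in MC38-CMAS KO, 1710, 1601 and 1434 in MC38-COSMC KO and 2578, 2521 and 2083 in MC38-DKO. Tapbp, which encodes the peptide loading factor tapasin, fell by 0.83 and rose by 0.85, and Erap1, which trims peptides, fell by 0.64 and rose by 0.64. Calr, a chaperone of the endoplasmic reticulum, was the 1 member that fell in MC38-DKO (-0.24). The effects differed between the backgrounds for 14 of the 18 genes, against 22.1% of all tested genes.

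The interferon response list had medians of -0.62 and 0.53. It had no call in the average among its 34 genes (0.0748% of all tested genes had one). In MC38-CMAS KO 0 rose and 6 fell, among them Irf1, a transcription factor of the response (-0.64), and Oas1a, an oligoadenylate synthase (-2.64). Of all tested genes, 5.11% fell there. In MC38-DKO 1 rose, Irf1 (0.58), a smaller share than the 7.39% of all tested genes that rose, and 0 fell. The samples of 1 line were spread widely here, with 152, 159 and 369 normalized counts of Oas1a in MC38-MOCK#1 and 61, 22 and 25 in MC38-CMAS KO.

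Of 23 tested collagen and other matrix genes, 10 rose and 2 fell in MC38-CMAS KO (5.18% and 5.11% of all tested genes) and 4 rose and 8 fell in MC38-DKO (7.39% and 8.01% of all), with medians of 0.72 and -0.47. Col6a3, a chain of collagen VI, had 108, 96 and 110 normalized counts in MC38-MOCK#1, 3382, 3522 and 3890 in MC38-CMAS KO, 3829, 4292 and 3765 in MC38-COSMC KO and 141, 121 and 228 in MC38-DKO. Col1a1, a chain of collagen I, rose by 2.94 and fell by 0.87, and Sparc, a collagen-binding matrix protein, rose by 1.56 and fell by 1.80. Col3a1 was the only member of the list that was called in the same direction in both backgrounds. Among integrins, Itgb8, which forms a receptor that activates latent TGF-beta, rose by 5.20 and fell by 5.43.

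Of 20 TGF-beta and BMP genes, Bmper was the 1 averaged call (0.0748% of all tested genes were called). Inhba, which encodes a subunit of activin, had 10, 6 and 9 normalized counts in MC38-MOCK#1, 113, 89 and 134 in MC38-CMAS KO, 30, 14 and 22 in MC38-COSMC KO and 12, 7 and 9 in MC38-DKO. It thus rose by 3.60 in one background and fell by 1.12 in the other. Of 23 genes of cholesterol and fatty acid synthesis, 10 rose and 0 fell in MC38-CMAS KO (5.18% and 5.11% of all tested genes) and 0 rose and 5 fell in MC38-DKO (7.39% and 8.01% of all). Sqle, squalene epoxidase, rose by 0.59 and fell by 0.27, and Scd2, a desaturase, rose by 0.82 and fell by 0.64. Among 19 genes of the ER stress and amino acid response, 4 rose and 0 fell in MC38-CMAS KO and 1 rose and 7 fell in MC38-DKO, beside the same shares of all genes, with Ddit3, a stress-induced transcription factor, at 0.79 and -0.98.

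The shift of each chromosome was measured as the median over its genes with a mean of at least 10 normalized counts. On chromosome 10 the median log2 fold change was 0.18 in MC38-CMAS KO and -0.34 in MC38-DKO, and 54.2% of its 649 genes had effects that differed, against 31.3% of all genes with such a mean on the chromosomes plotted. Chromosome 15 had 0.14 and -0.21, with a share of 46.0%. A high share also occurred without such a shift. On chromosome 14 it was 51.8% of 440 genes, with medians of -0.01 and 0.01. In the average the medians lay between -0.09 for chromosome 10 and 0.08 for chromosome 2. The medians of chromosomes 1, 3, 4, 8, 16 and X had the same sign in both backgrounds, with -0.07 and -0.07 for chromosome 1 and 0.12 and 0.05 for chromosome 4, and those of the other chromosomes plotted had opposite signs. Besides Cmas, 3 of the averaged calls, Arhgef5, Bpgm and Cald1, are on chromosome 6, where the medians were -0.09 and 0.07. This chromosome holds 669 of the 13527 genes with such a mean on the chromosomes plotted. Bpgm (34476207 to 34505613) and Cald1 (34598500 to 34775473) are close together, and whether their rises are separate was not tested. With chromosome medians removed, 16 genes were again called, 13 of them the same genes.

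**Figure D5:**
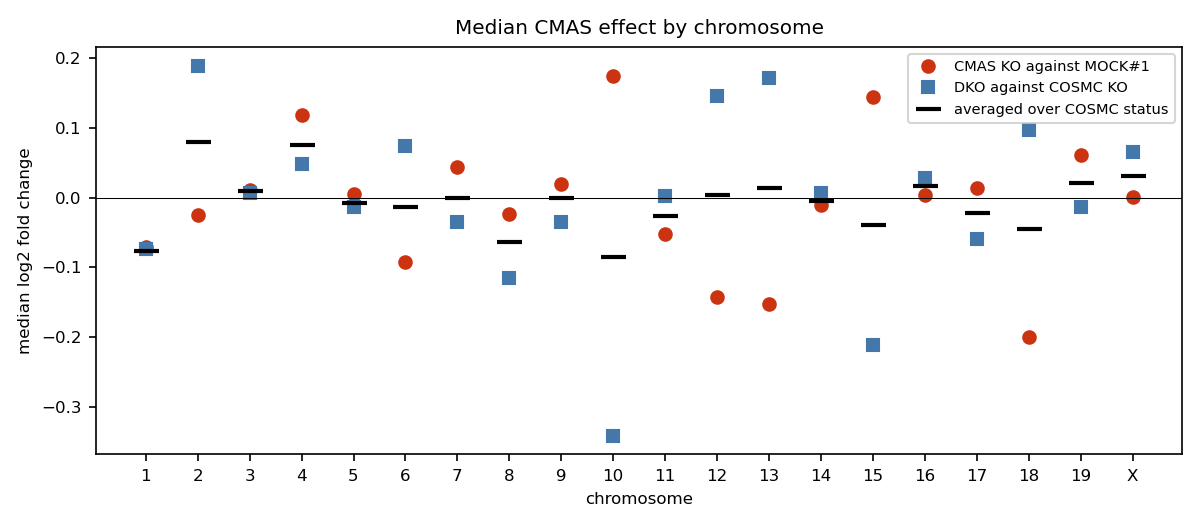
Median log2 fold change of the genes of each chromosome (vertical axis) for MC38-CMAS KO against MC38-MOCK#1 (red circles), MC38-DKO against MC38-COSMC KO (blue squares) and the average (black bars). The widest gap is on chromosome 10, from 0.18 to -0.34, while the averages stay between -0.09 and 0.08.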

How the data were processed

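Messenger RNA of MC38 lines was sequenced from 3 samples a line. The submitters' processing notes name HISAT2 2.0.4, SAMtools 0.1.19, featureCounts of Subread 1.5.0-p3 and edgeR 3.18.1 with build GRCm38. The authors deposited scores, not raw counts: reads per gene were scaled by library size and TMM and then rounded. They are called normalized counts here, and count models were not used on them.

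Of 52636 identifiers, 52489 had a symbol in the GENCODE M21 annotation. Genes with at most 8 zeros among 12 samples were tested as log2(value + 1) by linear models in limma 3.58.1 (R 4.3.3), moderated by eBayes with trend, with p-values adjusted over all tested genes by Benjamini-Hochberg and called below 0.05. Fold changes are on this scale and understate changes of low genes. The average came from an additive fit of CMAS and COSMC status (9 residual degrees of freedom), and the effects within a background and their difference from a fit with a mean for each line (8). The scripts were tested on simulated data. Tables and plots were made with pandas 2.3.3, numpy 2.4.6 and matplotlib 3.10.9 under Python 3.11.15.

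Named genes were Cmas, C1galt1c1, list members, up to 10 genes a direction with the largest averaged change among protein-coding genes called in the average and in both backgrounds, without overlap of samples and with a mean of at least 20, and 5 genes of each sign with the largest difference among those called in opposite directions. The first rule took 9 higher genes and 1 lower. The other 6 averaged calls (Gm17067, Lbx1, Trpv2, Tmcc3, Ptgs2os2, Mpzl3) and Afg3l1 were named after their values were seen. Members and gene lists were chosen with earlier results of these data known. Alternatives were the pseudocount, the filter, the scaling, chromosome medians removed, no trend, no covariate, a mean for each line, all 24 samples, the replicate number as a block, a fold threshold and leaving out each sample. The Cmas guide sequence is not given in the sources used here, and other lines were used for levels only.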

Additional observations from a re-analysis of the deposited data

Results flagged for a closer look

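The CMAS effect differed between the backgrounds with and without COSMC targeting in 4736 genes, by the test of the difference in limma. Among the genes called in the average, the difference (effect with minus effect without COSMC targeting, log2 scale) was -0.46 for Trpv2, 1.49 for Bmper and -1.51 for Col3a1. Among genes called in opposite directions it was -15.55 for Timp3, -13.71 for Pet2, -11.41 for Colec12, -11.01 for Sorcs2 and -10.98 for Stxbp2. On the other side it was 6.60 for Sphk1, 6.64 for Ovol2, 6.78 for Syk, 7.19 for Gm18336 and 7.25 for Ccdc36. Of the genes in the lists, 165 of 375 had effects that differed, against 22.1% of all tested genes. These lists were chosen with earlier results of these data known, so the count is no separate support.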

How the results depend on the processing

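The 16 averaged calls became 347 with all 24 samples in the fit (14 of the 16 among them), 287 with a mean for each line, 7 with an absolute log2 fold change above 1, and 12 without the COSMC term. All 16 genes kept their sign in each of these fits. Leaving out 1 sample gave 8 to 15 calls, fewest without MC38-CMAS KO replicates 1 or 2 (8 each). It gave 9 without MC38-CMAS KO replicate 3, MC38-COSMC KO replicates 2 or 3 or MC38-MOCK#1 replicate 3, and 10 without MC38-MOCK#1 replicate 2. Gm17067, Cmas, Trpv2, Arhgef5, Cald1, Tst, Bmper and Mpzl3 (8 of 16) were called in all 12 of these fits. Without COSMC targeting the count ranged from 1324 (without MC38-MOCK#1 replicate 2; 1461 without MC38-CMAS KO replicate 2) to 2404, with COSMC targeting from 2301 to 3473, and for the difference from 3913 to 4668. With an absolute log2 fold change above 1 these counts were 780, 901 and 1982. The averaged change of C1galt1c1 ranged from -0.111 (without MC38-COSMC KO replicate 3) to 0.072 over these fits and turned to 0.016 and 0.072 without MC38-CMAS KO replicates 2 and 3, and to 0.022 and 0.034 without MC38-MOCK#1 replicates 1 and 3. With chromosome medians removed, the effect with COSMC targeting turned to 0.0886 for Lss and 0.0816 for Hk1, and the difference to 0.0039 for Cdk1; the cause was not tested. Same-numbered samples of different lines correlated with -0.227 to 0.205, above 0.1 in 7 of 18 pairs. Among MC38-COSMC KO, MC38-CMAS KO and MC38-DKO they correlated with -0.034 to 0.205, and with MC38-MOCK#1 with -0.227 to 0.106. Samples of different numbers correlated with -0.229 to 0.262. The numbers follow passage, and whether some lines share a trend with passage was not tested. The main fits did not pair the samples. With the replicate number as a block, 10 genes were called in the average, all among the 16, and the calls of Col3a1, Neo1, Slc23a2, Tmcc3, Lbx1 and Ptgs2os2 were lost (adjusted p from 0.0628 to 0.177). Few reads behind genes such as Mpzl3, Gm17067 and Lbx1 limit their precision.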
